A study of Mus musculus with 2 samples.

Results

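The genes of the Mediator complex were examined in a map of Myb binding in normal mouse bone marrow progenitors. Members were the protein-coding genes of the GENCODE vM21 annotation whose symbol is Med followed by a number, with a final l where present, together with Ccnc, Cdk8 and Cdk19. This gave 33 of 21938 protein-coding genes, of which 11 encode subunits of the head, 9 of the middle, 5 of the tail and 7 of the kinase module, and Med14 was kept apart as the scaffold. Chromatin came from WT mouse bone marrow depleted of mature cells (Lin–), a mixed population in which progenitors are enriched and no single cell type was sorted. The labels give no age or number of mice. There were 2 samples from this cell type, 1 precipitated with an antibody against the transcription factor Myb and 1 with nonspecific rabbit IgG, which the authors used as the background of the peak calls. With 1 library per antibody there was no replicate, so the values are those of a single Myb library, and variation between mice was not measured.

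Mediator is a large coactivator that bridges sequence-specific transcription factors and RNA polymerase II. The head and middle modules contact the polymerase, the tail is the main landing site of activators, Med14 runs through the complex as its backbone, and the kinase module binds reversibly and carries Cdk8 or its paralog Cdk19 with cyclin C. Myb is a hematopoietic transcription factor that activates genes through the coactivators p300 and CBP, whose KIX domain it binds, and the tail subunit Med15 carries a related KIX domain.

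A promoter peak was a Myb peak whose summit lay within 3 kb of any annotated transcript start of the gene, and such a peak was listed at 24 of the 33 Mediator genes, or 72.7% (54.5% to 86.7%). Over all protein-coding genes the share was 39.9%, which lay below the interval of the Mediator genes. Intervals on shares are exact (Clopper-Pearson) 95% intervals and cover counting error only. The 24 genes carried 41 promoter peaks, with 1 peak at 12 genes and 2 or more at the other 12. The members without a promoter peak were Med8, Med27, Med28 and Med30 in the head, Med10 in the middle, Med15 in the tail, and Med12, Med12l and Cdk8 in the kinase module. From their starts the nearest peak of the list lay between 3.9 kb, at an internal start of Med12l, and 428 kb, at Med30. It lay at 25.9 kb for Med8, 93.9 kb for Med27, 147 kb for Med28 and 191 kb for Med10. The summit at Med12l was 255133 bp from the 5′ end of that gene.

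Most Mediator genes have promoters of the CpG-rich type that housekeeping genes share, and the background depended on this. A promoter was called CpG-rich when the sequence within 500 bp of a protein-coding transcript start had a GC content of at least 50% and an observed to expected CpG ratio of at least 0.6. By this measure 31 of the 33 members, or 93.9%, were CpG-rich, against 49.9% of all protein-coding genes. A promoter peak was listed at 22 of these 31 members, or 71% (52% to 85.8%), beside 63.9% of all CpG-rich genes and 16.1% of the genes that were not CpG-rich. The interval of the members included the share of CpG-rich genes, so at this number of genes Mediator could not be told apart from other genes with such promoters. The members outside the class, Med6 and Med24, both had promoter peaks, and all 9 members without one were CpG-rich. Members also had more annotated starts, with a median of 5 per member against 3 per protein-coding gene, and each start widens the searched region. Among genes with at least 5 starts, 11 of 18 members (61.1%, 35.7% to 82.7%) had a promoter peak, beside 61.9% of all such genes.

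The modules did not separate by their share of genes with a promoter peak. The middle module had peaks at 8 of 9 genes (88.9%, 51.8% to 99.7%), the tail at 4 of 5 (80%, 28.4% to 99.5%), the head at 7 of 11 (63.6%, 30.8% to 89.1%) and the kinase module at 4 of 7 (57.1%, 18.4% to 90.1%). All 4 intervals overlapped. The head, middle and tail genes together with Med14 held peaks at 20 of 26 genes, or 76.9% (56.4% to 91%). The plot of shares by module shows these values against both backgrounds.

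**Figure D1:**
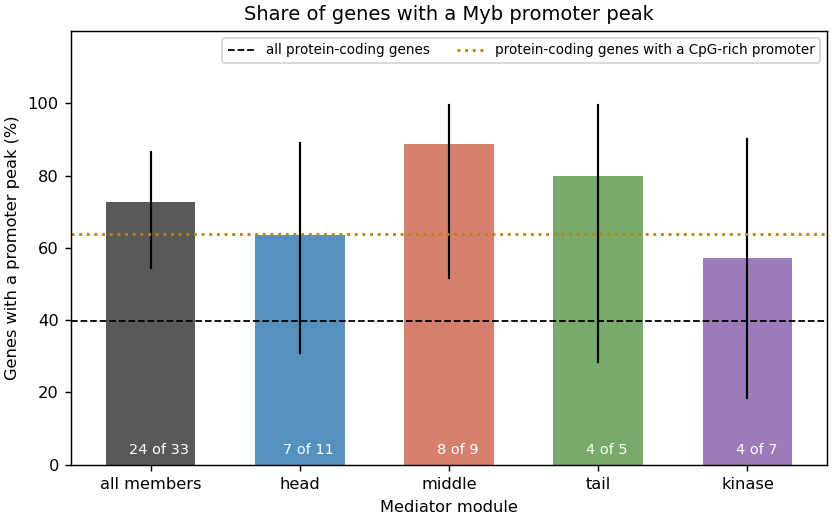
Bars give the percentage of genes with a Myb promoter peak among all 33 Mediator genes and in each module, with the number of genes printed in the bar and black lines for exact 95% intervals. The dashed line is the 39.9% of all protein-coding genes and the dotted line the 63.9% of those with a CpG-rich promoter, and the module intervals overlap each other and include the dotted line.

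Fold enrichment, as deposited by the authors, is the Myb pileup plus 1 over the IgG background plus 1 at the summit of a peak. The ratio takes the number of Myb reads times 0.769, a factor that brings them to the scale of the IgG background, while the Myb reads printed here are whole reads without it. The strongest promoter peak of each of the 24 genes had a median fold enrichment of 5.17, with a range from 2.9 to 10.4, close to the median of 5.25 over the 8758 protein-coding genes with a promoter peak. Of the members, 12 were at or above that median, 7 were above its upper quartile of 6.84 and 6 were below its lower quartile of 4.17. The median number of Myb reads at these summits was 26.5 (10 to 53) for the members and 22 for all genes with a promoter peak. Since a gene needs a listed peak to enter, these medians describe the strength of listed peaks and not of the whole gene set. By module, the median of the strongest peaks was 8.39 in the tail (4.33 to 9.3), 5.46 in the head (4.08 to 7.21), 5.24 in the kinase module (3.43 to 9.11) and 4.38 in the middle (2.9 to 10.4). The ranges of the 4 modules overlapped, and the tail median rested on 4 genes. Of these, Med24 entered at 9.3 by a peak near an internal start, and its peak at the 5′ end had 3.8.

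**Figure D2:**
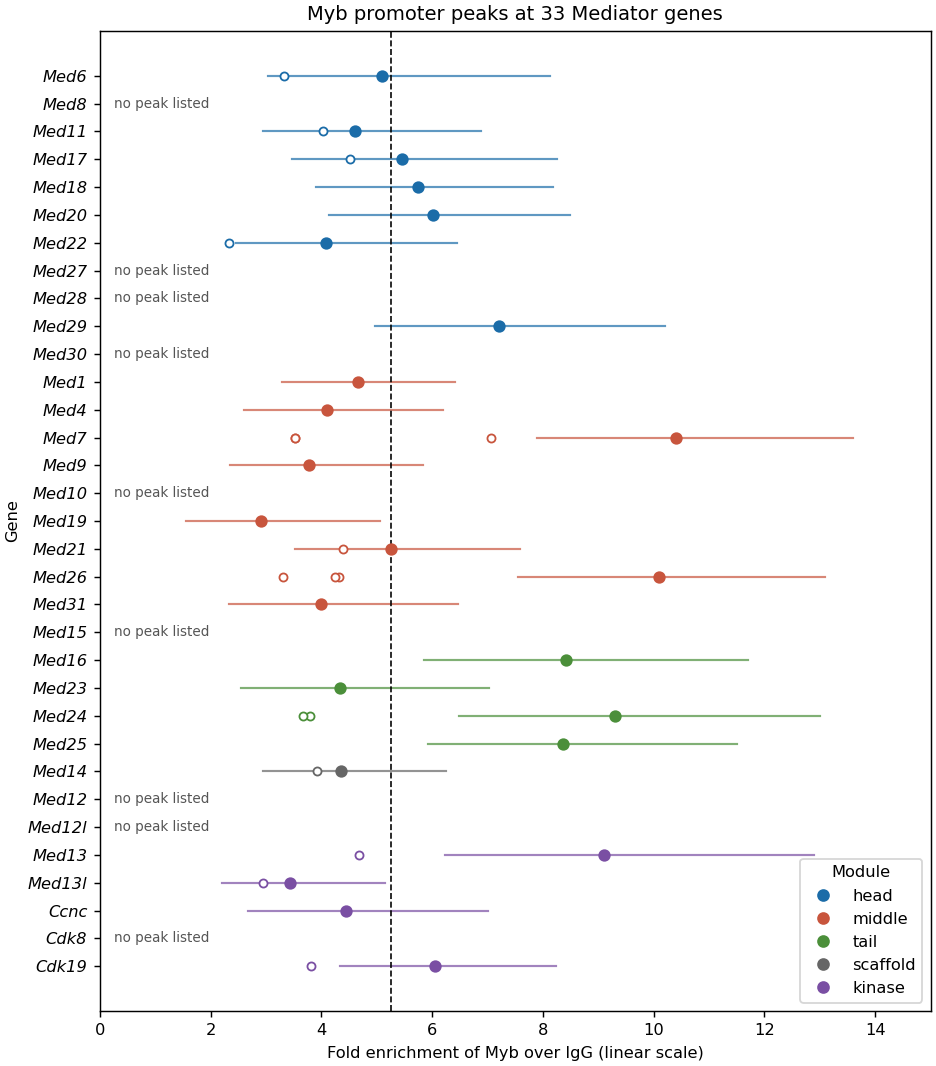
The horizontal axis gives fold enrichment of Myb over IgG on a linear scale for each Mediator gene, with filled points for the strongest promoter peak, open points for further promoter peaks and lines for 95% counting intervals with the background held fixed. The dashed line marks 5.25, the median over all protein-coding genes with a promoter peak, and the lines of Med7, Med26, Med16, Med24, Med25 and Med13 lie wholly to its right, those of Med19 and Med13l wholly to its left, and 9 genes have no point. Med7 has a pair of open points at nearly the same value.

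In the middle module, the strongest peaks stood at Med7 and Med26. Med7 forms with Med21 the hinge between the head and middle modules. Its promoter peak at chr11:46436627-46437773 (mm10) had a summit 128 bp downstream of a Med7 start, 53 Myb reads, a fold enrichment of 10.4 (7.89 to 13.6) and a −log10 q-value of 26.9. Intervals on fold enrichment are exact Poisson 95% intervals on the Myb reads with the background held fixed, and also cover counting error only. A further 3 promoter peaks of Med7 had fold enrichments of 7.06, 3.53 and 3.52. Those of 7.06 and 3.53 lay 2217 and 2948 bp from an internal start, the latter just inside the promoter window. From the 5′ end of the gene they lay 4944 and 5675 bp away. Med26, the subunit through which Mediator recruits elongation factors, had 4 promoter peaks around its single start. The strongest, at chr8:72548022-72548879, was centered 262 bp upstream with 51 reads, a fold enrichment of 10.1 (7.55 to 13.1) and a −log10 q-value of 25.8, and the other 3 had values of 4.31, 4.25 and 3.3. Med7 and Med26 were the only members whose lower bound was above the upper quartile of 6.84 over all genes. The sequence 50 bp either side of the strongest Med26 summit is given because it holds a Myb motif, in capitals, directly under the summit.
Med26, chr8:72548482-72548582, plus strand of mm10: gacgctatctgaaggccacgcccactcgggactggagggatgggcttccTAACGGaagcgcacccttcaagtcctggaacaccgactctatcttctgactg

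The remaining middle genes had weaker peaks. Med1, through which nuclear receptors contact Mediator, had 35 reads and a fold enrichment of 4.66 (3.29 to 6.41) at a summit 18 bp from its start. Med21 had its strongest peak 1749 bp upstream, at 5.25, and another of 4.39 at 234 bp. For Med4, a middle subunit, the single promoter peak lay 116 bp from a start with a fold enrichment of 4.1. Med9 had 1 promoter peak, at chr11:59948248-59948535, 212 bp from its start, with 18 reads, a fold enrichment of 3.78 (2.35 to 5.83) and a −log10 q-value of 2.95. The single peak of Med31, at chr11:72214526-72214796 and 381 bp from a start, had 14 reads, a fold enrichment of 3.99 (2.34 to 6.47) and a −log10 q-value of 2.6. These 3 genes were below the lower quartile of 4.17 over all genes. Med19, at chr2:84683080-84683651 and 2.9 (1.56 to 5.05) with 10 reads and 2396 bp from the nearest start, was the weakest of the 24 genes, and with a −log10 q-value of 0.728 its q-value was above 0.05. The counting intervals of Med7 and Med19, with the background held fixed, did not overlap. These are the highest and lowest genes of the module, picked by their values, so this describes the pair and not the module.

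In the tail, 3 of the 4 genes with a peak were above the upper quartile over all genes, Med24 only by a peak near an internal start. Med16, a tail subunit that joins Med23 and Med24 in one subcomplex, had its summit 2 bp from the start in a peak at chr10:79908365-79909658, with 32 reads, a fold enrichment of 8.41 (5.85 to 11.7) and a −log10 q-value of 14.6. Med25, a target of viral and ETS family activators, had 35 reads 118 bp from a start and a value of 8.36 (5.92 to 11.5). The strongest peak assigned to Med24, at chr11:98708592-98709547 with 32 reads, a value of 9.3 (6.48 to 13) and a −log10 q-value of 16.1, lay 898 bp from an internal start near the 3′ part of the gene. At the 5′ end of Med24 the peak was weaker, with 21 reads and a value of 3.8 (2.44 to 5.7) at 129 bp. Med23, which serves as the contact for the Ras-responsive factor Elk1, had 14 reads and a value of 4.33 (2.54 to 7.02) 276 bp upstream. The activator-binding subunit Med15 had no promoter peak, and the nearest peak, with 11 reads, a fold enrichment of 3.01 and a q-value above 0.05, lay 4723 bp from its start. Med14, the scaffold, had a peak of 4.36 (2.94 to 6.25) with 27 reads 325 bp from its start and another of 3.92 at 637 bp.

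The head module had no peak above 7.21. This value, with an interval from 4.96 to 10.2 and 30 reads, belonged to Med29, whose peak at chr7:28392504-28393191 had a −log10 q-value of 12.4 and lay 12 bp from its start. Med18 and Med20, which form the movable jaw of the head, had values of 5.74 (3.9 to 8.19) and 6.02 (4.14 to 8.49) with 28 and 30 reads. Med11 and Med22, which form a dimer in the head, were lower, at 4.6 (2.95 to 6.89) and 4.08 (2.46 to 6.44). At Med6, Med17 and Med22 the peak with the highest fold enrichment was not the one with most reads. Med17, the central architectural subunit of the head, had 28 reads over a background of 4 at a summit 46 bp from the start, with a fold enrichment of 4.51, and 20 reads over a background of 2 at 2785 bp, with 5.46. Med6 had 29 reads over a background of 6 at 14 bp, with 3.33, and 15 reads over 1.46 at 1581 bp, with 5.09. For Med22 the peak 183 bp from the start had 26 reads over a background of 8 and a value of 2.33, while the peak at 813 bp, at chr2:26909612-26909985, had 16 reads over 2.26, a value of 4.08 and a −log10 q-value of 3.4. At these genes the order of the peaks by fold enrichment was set by the IgG background, which was higher near the start.

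In the kinase module the listing of peaks differed within 1 of the 3 paralog pairs. Cdk19 had a promoter peak and Cdk8 did not, Med13 and Med13l both did, and neither Med12 nor Med12l had one. Med13, which connects the kinase module to the core complex, had 29 reads 840 bp upstream of its start in a peak at chr11:86357987-86358679, a fold enrichment of 9.11 (6.23 to 12.9) and a −log10 q-value of 14.9, and a further peak of 4.67 at 1305 bp. Its paralog Med13l had 21 reads, a value of 3.43 (2.2 to 5.14) and a −log10 q-value of 3.26 at 166 bp, in a peak at chr5:118561422-118561932. The fold enrichment intervals of the pair, with the background held fixed, did not overlap. The intervals on the Myb reads did, at 19.4 to 41.6 for Med13 and 13 to 32.1 for Med13l. The backgrounds were 1.56 and 4 reads, and their counting error is not in these intervals. Cdk19 had 38 reads, the third highest number among the strongest peaks, a value of 6.05 (4.34 to 8.23) and a −log10 q-value of 12.5 in a broad peak at chr10:40347944-40350611. That summit lay 362 bp from the start of a protein-coding transcript of Cdk19 and 9.4 kb inside the gene from its most upstream annotated start. Ccnc, the gene of cyclin C, had 16 reads 14 bp from a start and a value of 4.44 (2.68 to 7). The nearest peak was 36 kb from the nearest start of Med12, which is on X, and 10.3 kb from that of Cdk8. Over protein-coding genes on X only 15% had a promoter peak, and of the 2 members there Med14 had one and Med12 did not.

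**Figure D3:**
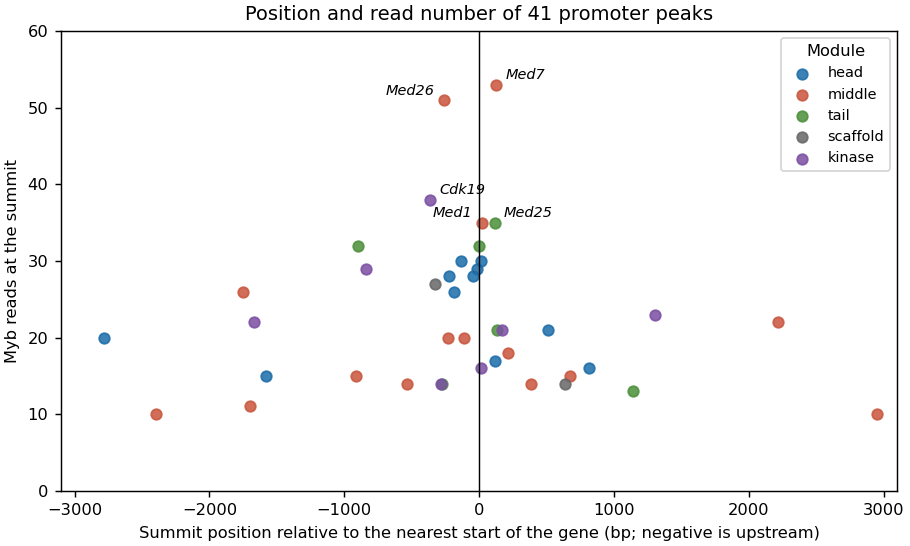
Each of the 41 promoter peaks of Mediator genes is placed by the position of its summit relative to the nearest start of its gene in bp, negative upstream, and by the number of Myb reads at the summit, with colors for the modules. The 7 highest points, from 32 to 53 reads, lie within 1 kb of a start, and the points beyond 2 kb have 10 to 22 reads.

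Summits stood close to the starts, as at other genes. The strongest peaks of the 24 genes had a median distance of 269 bp from the nearest start of the gene, and 16 of them, or 66.7%, lay within 500 bp, beside a median of 247 bp and 65.9% over all protein-coding genes with a promoter peak. When each gene was represented by its peak with most reads, 19 of 24, or 79.2%, lay within 500 bp, against 68.4% over all genes. The 23 member peaks within 500 bp had a median of 27 reads over 3 background reads and a median fold enrichment of 4.39, and the 18 farther peaks had 15.5 reads over 2 and 4.28. Among promoter peaks of the whole list the medians were 20 reads and 4.73 within 500 bp and 17 reads and 4.4 beyond. Just inside the limit of 3 kb lay peaks of Med7 at 2948 bp, Med17 at 2785 bp and Med19 at 2396 bp. Just outside it lay peaks of Med12l at 3896 bp, Med13 at 4694 bp and Med15 at 4723 bp. The distances at Med7, Med19, Med12l and Med15 are to starts inside the gene. From the 5′ end of the gene these summits lay 5675, 4835, 255133 and 5221 bp away.

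Some of these promoters are shared with a neighboring gene on the opposite strand, and a peak there cannot be given to one gene alone. Another protein-coding start lay within 1 kb upstream on the opposite strand for 5 members, or 15.2%, against 6.79% of all protein-coding genes. The pairs included Med20 with Bysl at 90 bp, Med22 with the ribosomal protein gene Rpl7a at 87 bp, Med29 with Paf1 at 243 bp and Med19 with Gm28635 at 361 bp. Of these 5 members, 4 had a promoter peak, and 77.2% of all protein-coding genes with such a neighbor had one. The Med19 peak was not at the promoter shared with Gm28635, since its summit lay 4835 bp inside the gene from the 5′ end. Among the 28 members without such a neighbor the share was 71.4% (51.3% to 86.8%), and it was 61.6% over all CpG-rich protein-coding genes without one, inside that interval. At Med20 the start of Bysl was nearer to the summit, 46 bp against 136 bp, and 22 of the 24 strongest peaks had the Mediator gene itself as the nearest start, the other exception being Med14 with Gm14634. Another protein-coding gene had a start within 3 kb of the summit at 7 of the 41 promoter peaks. These include the peaks of Med21, near Tm7sf3, and of Med16, near Gm26602, which are not among the pairs above.

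All 7 members on chromosome 11, Med1, Med7, Med9, Med11, Med13, Med24 and Med31, had a promoter peak (100%, 59% to 100%), against 48.7% of the protein-coding genes of that chromosome. This grouping was chosen after the values were seen and is given as a description.

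Myb motifs were searched within 50 bp of each summit, on either strand, in the form CAACGG, the form CAACTG, the form TAACGG or the form TAACTG. At least 1 was present at 10 of the 41 promoter peaks, or 24.4% (12.4% to 40.3%), and at 14.7% of all promoter peaks in the list, a share inside the members' interval. The 10 peaks belonged to 8 genes, Med20 and Med29 in the head, Med1, Med9 and Med26 in the middle, Med23 in the tail, and Med13l and Cdk19 in the kinase module. Med26 held motifs at 3 of its 4 peaks and Med23 held 2 in 1 peak. Med26 thus had a motif under its strongest summit, while Med7, with the most reads of any member, had none within 50 bp of any of its 4 summits. The count depended on the window. Within 25 bp 3 of 41 member peaks (7.32%) held a motif against 7.83% of all promoter peaks, and within 100 bp 14 (34.1%) against 26.9%. The shorter form AACNG, which occurs often by composition alone, was at 23 of 41 (56.1%) against 51.1%. The sites are printed to show the bases around each match, the core itself being what was searched for. Each is given with 12 bases on either side, the motif in capitals, on the plus strand of mm10, so that a motif on the minus strand appears as its reverse complement.
Med20, chr17:47611439-47611468, motif on the minus strand: cgtcctgtcaacCCGTTGgacgccttgggg
Med29, chr7:28392718-28392747, motif on the minus strand: cctcagctttttCAGTTGgctgacctccta
Med1, chr11:98193261-98193290, motif on the plus strand: cgccatcttcccCAACGGaacttcccaaag
Med9, chr11:59948441-59948470, motif on the minus strand: tactcctttttgCCGTTGgttcacaatgtc
Med26, chr8:72547621-72547650, motif on the plus strand: gtcgggctgggaCAACGGagaagaactagc
Med26, chr8:72548519-72548548, motif on the plus strand: ggatgggcttccTAACGGaagcgcaccctt
Med26, chr8:72549198-72549227, motif on the plus strand: cggtgacccctaCAACTGgacagatggagg
Med23, chr10:24869650-24869679, motif on the plus strand: tcactgtgctagCAACTGagggtaccatag
Med23, chr10:24869707-24869736, motif on the plus strand: ataacgtggtatCAACTGcttcacgaggtc
Med13l, chr5:118561307-118561336, motif on the minus strand: ttcgcccgaaaaCAGTTGatggaaggcgat
Cdk19, chr10:40348885-40348914, motif on the plus strand: caatgtgtagtaCAACTGtctaaaccccag

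A match describes the sequence and does not show where Myb touched the DNA. The distance from the summit to the nearest base of the motif was 5 bp at Med20, 9 bp and 43 bp for the pair of sites at Med23, 30 bp at Med13l, 31 bp at Med1, 34 bp at Med29, 35 bp at Med9 and 44 bp at Cdk19. At Med26 it was 0, 30 and 33 bp.

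Short motifs of another 7 factor families were counted in the same windows. The ETS form CCGGAAG was at 3 of 41 member promoter peaks, or 7.32% (1.54% to 19.9%), against 2.67% of all promoter peaks, at Med1, Med6 and Med17. The YY1 form ATGGCGGC was at 2, or 4.88% (0.596% to 16.5%), against 0.808%, at Med1 and Med16. The NRF1 form GCATGCGC was at 1, Med17, or 2.44% (0.0617% to 12.9%), against 0.498%. The CCAAT box of NFY was at 4 (9.76% against 11%), the SP form GGGCGG at 5 (12.2% against 10.8%), the RUNX form TGTGGT at 3 (7.32% against 7.05%) and the GATA forms AGATAA and TGATAA at 2 (4.88% against 10.1%). Each search covered both strands, and for each of the 7 families the members' interval included the share over all promoter peaks. Med1 was the only member peak with motifs of Myb, ETS and YY1 together. The window of the Med17 peak near the start is shown for its ETS and NRF1 forms, in capitals.
Med17, chr9:15279927-15280027, plus strand of mm10: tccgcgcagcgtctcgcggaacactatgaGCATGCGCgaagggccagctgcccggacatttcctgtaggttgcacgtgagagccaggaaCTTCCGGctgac

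Inside Mediator genes, outside the promoter window, 35 further peaks were listed in 8 of the 33 genes (24.2%), against 14.9% of all protein-coding genes. The kinase module held 32 of them, in 5 of its 7 genes, and 30 of the 32 were in introns. Kinase module genes were long, with a median length of 90.6 kb against 13.9 kb for the other members and 17.4 kb for all protein-coding genes. Among genes of at least 100 kb, 45.8% had a peak in the gene body, and so had 3 of the 4 members of that length, Med27 being the exception. Outside the kinase module, Med20, Med29 and Med15 had 1 such peak each, at fold enrichments of 6.43, 5.44 and 3.01.

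Med12l, a paralog of Med12, had 16 peaks over its 313 kb at chr3:59005825-59318682, or 5.11 per 100 kb (2.92 to 8.31), while all genes of at least 100 kb had 0.574 per 100 kb. As many or more peaks were found in 14 of these 2492 genes, or 0.562%, and as many or more per kb in 2.69%. The introns of Med12l contain the purinergic receptor genes P2ry12, P2ry13 and P2ry14 and the orphan receptor gene Gpr171, on the opposite strand. Of the 16 peaks, 11 lay within 3 kb of a start of one of these 4 genes, namely 4 at P2ry13, 3 at P2ry12 and 2 each at P2ry14 and Gpr171. The strongest, at chr3:59260428-59261288 with 33 reads, a fold enrichment of 9.58 and a −log10 q-value of 17.2, lay 1873 bp from a P2ry12 start, and 3896 bp from the start of an internal Med12l transcript. A further 5 peaks, from 2.48 to 6.21, lay beyond 3 kb from those starts, and 3 of the 16 had a q-value above 0.05.

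Cdk19 had 8 peaks, 7 in introns and 1 in an exon, or 5.55 per 100 kb (2.39 to 10.9), and as many or more were found in 3.53% of the genes of at least 100 kb, or 2.29% when counted per kb. The strongest, at chr10:40451615-40452565 with 46 reads, a fold enrichment of 9.1 and a −log10 q-value of 21.6, lay 112541 bp inside the gene and had more reads than the promoter peak of Cdk19. Med13l had 5, or 2.44 per 100 kb (0.793 to 5.7), with the strongest at chr5:118636496-118637228, 33 reads, 7.47 and a −log10 q-value of 13.6, more than at either of its promoter peaks. Med13 had 2, at 4 and 2.91, and Cdk8 had 1, with 21 reads and a fold enrichment of 6.97, 14066 bp inside the gene. A Myb motif lay within 50 bp of 1 of the 35 summits, in Med13l, or 2.86% (0.0723% to 14.9%), while 19.4% of all peaks outside promoters had one. The latter lay beyond 3 kb from every annotated start, while 12 of the 35 lay within 3 kb of a start of another gene. The sets are therefore not alike, and the share over all promoter peaks, 14.7%, was inside the members' interval. The same limit holds for the other forms below. Since 16 of the 35 peaks share 1 gene, they are not independent of each other. The RUNX form was at 8 of the 35 (22.9%, 10.4% to 40.1%) against 13.5%, the NFY form at 9 (25.7%, 12.5% to 43.3%) against 11.1% and the GATA forms at 6 (17.1%, 6.56% to 33.6%) against 18.9%. The SP form was at 0 of the 35 (0% to 10%) against 2.22%, and the ETS, NRF1 and YY1 forms were also at 0.

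**Figure D4:**
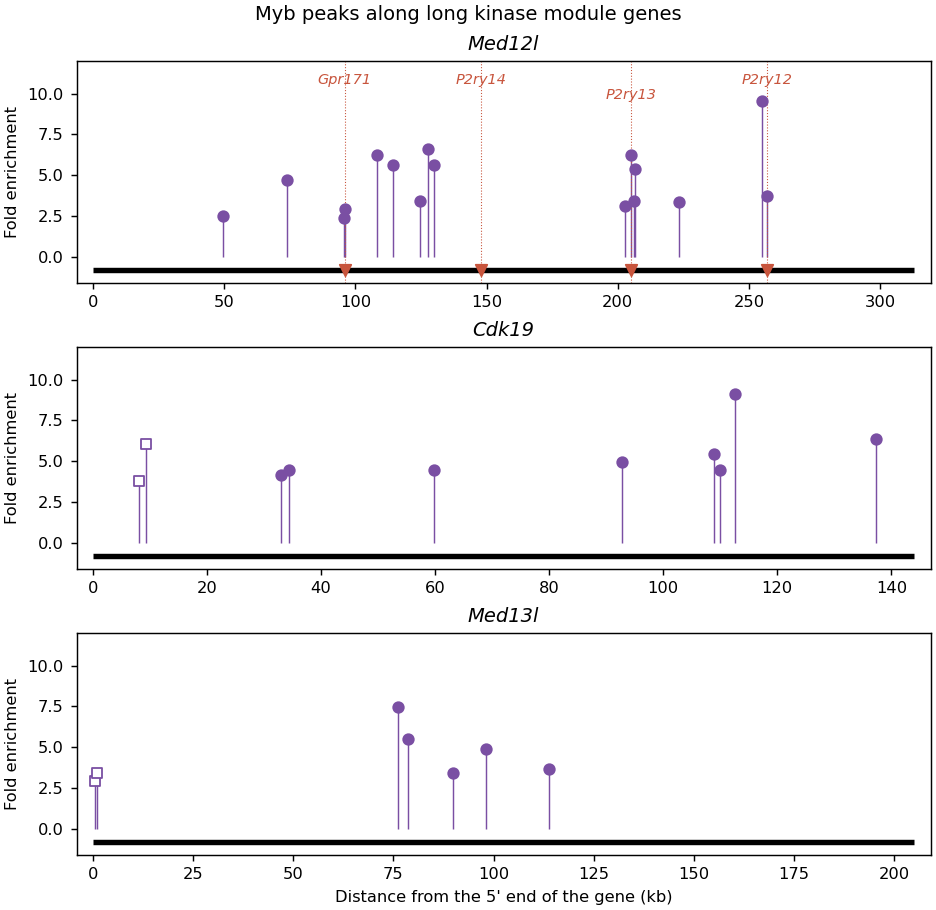
Fold enrichment of each peak is plotted against the distance of its summit from the 5′ end of Med12l, Cdk19 and Med13l in kb, with filled circles for peaks in the gene body, open squares for promoter peaks and the black bar for the gene. Triangles and dotted lines mark the 5′ ends of these 4 receptor genes inside Med12l, and since P2ry14 and P2ry12 also have other starts, some peaks counted with them stand away from the lines. Med12l has 16 circles and no square.

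Genes whose products work with Mediator at promoters were counted in the same way. Of 30 genes for RNA polymerase II subunits, general transcription factors, the kinases of the polymerase tail and coactivators such as p300 and CBP, 26 had a promoter peak, or 86.7% (69.3% to 96.2%), with a median of 4.34 for the strongest peaks (2.82 to 15.7). Gtf2a1, at 15.7, the polymerase subunit gene Polr2a, at 13.1, and Gtf2b, at 10.3, were the highest. Those without a peak were Polr2j, Polr2f, Mnat1 and Gtf2e1. The intervals of the partner and Mediator shares overlapped. For comparison, the share was 39.9% over all protein-coding genes and 63.9% over those with a CpG-rich promoter, which most of the 30 genes had. Both lay below the partner interval, but the list was chosen with earlier results of these data known, and no test was made. The median of the strongest peaks over all protein-coding genes with a promoter peak was 5.25, above that of the partner genes.

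The whole list held 25793 peaks, 57.6% of them at promoters, and its total library depth is not given in the peak file. As a check of the label, 7 of 8 progenitor loci (Kit, Flt3, Gata2, Runx1, Mpo, Spi1 and Lmo2, but not Cd34), 2 of 8 mature lineage loci and 0 of 8 loci of other tissues had a promoter peak. Of the 41 Mediator promoter peaks, 2 had a q-value above 0.05 and 18 had a −log10 q-value of at least 5. With that limit the members with a promoter peak fell to 15, or 45.5%, beside 24.3% of all protein-coding genes, and Ccnc, Med4, Med6, Med9, Med13l, Med19, Med22, Med23 and Med31 were lost.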

How the data were processed

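Myb ChIP-Seq of Lin– bone marrow cells of WT mice was analyzed from the deposited narrow peak list. The authors used Cutadapt 1.15 for adapter trimming and BWA 0.7.13 for alignment to mm10, removed duplicates with Picard, filtered by mapping quality and the mm10 blacklist, and called peaks with MACS2 2.1.1.20160309 against IgG, keeping calls that overlapped between pseudo-replicates, which are random subsets of 1 library. For these calls the paper gives a q-value limit of 0.05, but the deposited list also holds peaks with a q-value above it. Counts here use every listed peak unless a limit is named, so they are not those of the paper's Myb target genes. The deposited fold enrichment is a ratio of Myb pileup to IgG background, each plus 1, and the authors deposited p-values and q-values as −log10 values. A sequence that many genomic copies share is thinned by the mapping filter, so no listed peak does not mean no binding.

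Summits were assigned to GENCODE vM21 starts within 3 kb, in mm10 (GRCm38.p6) coordinates, 1-based, with Python 3.11.15, pandas 2.3.3, pysam 0.24.0 and scipy 1.17.1. Reads were recovered from fold enrichment and p-value with a pileup scale of 0.769, which gave whole reads in 100% of the peaks within 0.0005 in −log10 p, and the step was tested on simulated data. In 0.0659% of the peaks more than 1 read number matched. No p-value was computed across genes or peaks, which are not replicates. Background shares are over all protein-coding genes with the same rule, without those of the mitochondrial genome.

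The members, the modules, the partner list and the label check lists were chosen with earlier results of these data known. All members were named, with full values for the strongest promoter peak of each module and of the 3 paralog pairs, for the 5 highest and 5 lowest members and for the strongest of the peaks inside Med12l, Cdk19 and Med13l. The rule also called for full values of the other peaks inside the genes, which are given by counts and ranges. Alternatives changed the promoter window, the q-value limit, the set of starts, the module assignment, and the width and form of the motif search. Some neighboring, partner and marker genes are counted in the totals and not reported here by name.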

Additional observations from a re-analysis of the deposited data

How the results depend on the processing

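The promoter peak counts were most affected by the q-value limit. Keeping only peaks with a −log10 q-value from 5 upward, the members with a promoter peak fell from 24 to 15, the middle module genes from 8 to 4, the kinase module genes from 4 to 2, the member promoter peaks from 41 to 18, those with a Myb motif from 10 to 5, and the protein-coding genes from 8758 to 5332. A promoter window of 500 bp left 23 member peaks, and a motif window of 25 bp left 3 peaks with a motif while the form AACNG gave 23. The other 66 of 75 alternative values stayed near the main ones. Counts were within 1.5 times the main count. Median fold enrichments fell inside an interval on the main median, taken from the ranked values of the members. The members with a promoter peak numbered 22 to 24 in these settings. Med19 was lost with the 1 kb and 500 bp windows, with a q-value of at most 0.05, and with protein-coding transcripts or the gene's 5′ end alone, Med13 with the 500 bp window, Cdk19 with the 5′ end alone and Med20 with the nearest start alone. Counting only CpG-rich sequence at the 5′ end of the gene, an alternative chosen after seeing the data, 20 of 26 members (76.9%) had a promoter peak against 64.3% of all such genes. Counting Med27, Med28, Med29, Med30 and Med14 as tail and Med19 as head gave 7 of 8 head, 7 of 8 middle and 6 of 10 tail genes. No paired analysis was possible because there was 1 library per antibody. Small read numbers limit the values: the strongest peaks of members rested on 10 to 53 reads.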
